A study of Mus musculus with 7 samples.

Results

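The genes Mrc1, Cd163, Lyve1, Pf4, F13a1, Cbr2, Stab1, Folr2 and Adgre1, which mark macrophages at tissue borders, were followed in retinal microglia (rMG) of Irf8-deficient mice before and after laser injury. They were chosen by name, as the rows of the deposited table with these symbols, and all 9 were found among 40743 genes. The RNA-seq libraries, all labelled Irf8 KO, came from mice with the genotype Irf8-/- Cx3cr1GFP/+, which stands for the loss of Irf8 in all cells and a GFP gene in a Cx3cr1 allele. In the unlasered group (n = 3) the retinae had received no treatment, and in the lasered group (n = 4) rMG were taken on day 7 after each eye had received 3 to 6 laser spots, which break the membrane under the retina and start choroidal neovascularisation (CNV). For each library rMG were sorted as CD45low CD11b+ GFP+ Ly6C- Ly6G- cells from pools of 3 to 4 mice, with 10000 cells per sample on average. Only the central 70% of the retina entered the lasered pools, so the laser injury and the part of the retina cannot be told apart. The ages of the mice are not given in the labels, and wild-type libraries were not analysed here. The comparison addresses whether transcripts known from border macrophages changed in Irf8-deficient rMG during CNV formation.

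Border macrophages line the meninges, the spaces around vessels and, in the eye, the ciliary body, the choroid and the vessel surroundings of the retina. They share an embryonic origin with microglia but carry scavenger receptors and lectins that microglia in the tissue proper express weakly. Several of these proteins take up material from the surroundings: MRC1 (CD206) binds mannose-rich glycoproteins and collagen, CD163 binds haptoglobin with haemoglobin, STAB1 clears modified lipoproteins and other waste, and FOLR2 binds folate. IRF8 is a transcription factor that works with PU.1 in myeloid cells and is needed for the mature state of microglia.

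Total reads were between 20427558 and 36022954 in unlasered and between 37133297 and 45919042 in lasered libraries. Levels are given as CPM, the reads of a gene relative to all reads of its library, and the smallest level that the depth can show, set at 3 reads, was between 0.0653 and 0.147 CPM. Irf8 itself, listed jointly with the overlapping gene Gm20388, was measured at 529.9, 488.8 and 507.4 CPM in unlasered and at 462.8, 465.3, 475.1 and 582.4 CPM in lasered libraries 1 to 4. Reads of the locus were thus present in every library labelled Irf8 KO, and which of its exons they came from cannot be read from the table. The core macrophage genes, among them Csf1r, C1qa and Tyrobp, summed to between 16160 and 20160 CPM in unlasered and between 17370 and 20720 CPM in lasered libraries. At an adjusted p under 0.05 in limma, 0 of the 12 core macrophage genes and 0 of 11 tested microglia genes were called, beside 6.93% of all genes tested. At an unadjusted p under 0.05 there were 2 and 5, beside 3963 of all 17496. Of the microglia genes, 8 of 11 had a negative log2 fold change, with a median of -0.34. The sum of rod photoreceptor genes was 2183, 19690 and 5718 CPM in unlasered libraries 1, 2 and 3 but only between 317.9 and 1014 CPM in lasered libraries, and 14 of 15 fell. With library totals taken without the rod genes, Pf4 stayed the called border gene, with a log2 fold change of -0.90 and an adjusted p of 0.028 in limma.

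Mrc1 (ENSMUSG00000026712, chr2:14229392-14332057 of GRCm38, plus strand, protein-coding, 29 merged exons) holds the microRNA gene Mir511 within its span and outside its exons, and part of its listed reads were shared with Mir511. Its mature 3p strand lies at chr2:14261051-14261072 on the plus strand and is shown (RefSeq, GRCm38.p6) because Mrc1 and Mir511 share listed reads. Whether reads of this stretch are among them was not tested. Capitals mark the seed, bases 2 to 8.

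mmu-miR-511-3p: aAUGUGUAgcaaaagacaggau

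The 150 bases before the RefSeq start of Mrc1 are shown together with those of 2 neighbouring pairs of genes, Ppbp with Pf4 and Dcxr with Cbr2, whose values are described below. Capitals mark matches, on either strand, to GAGGAA, the core bound by PU.1 and related ETS factors, and to the TATA box given below. The stretches lie at chr2:14229264-14229413 (plus strand) for Mrc1, chr5:90772285-90772434 (plus) for Pf4, chr5:90768368-90768517 (plus) for Ppbp, chr11:120732022-120732171 (minus) for Cbr2 and chr11:120727285-120727434 (minus) for Dcxr.

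Mrc1: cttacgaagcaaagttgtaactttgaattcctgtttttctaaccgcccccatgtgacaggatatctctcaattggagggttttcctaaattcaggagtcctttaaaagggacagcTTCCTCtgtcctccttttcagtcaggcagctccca

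Pf4: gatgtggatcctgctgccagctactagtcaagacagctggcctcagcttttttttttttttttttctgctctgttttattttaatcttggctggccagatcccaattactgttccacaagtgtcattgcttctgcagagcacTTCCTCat

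Ppbp: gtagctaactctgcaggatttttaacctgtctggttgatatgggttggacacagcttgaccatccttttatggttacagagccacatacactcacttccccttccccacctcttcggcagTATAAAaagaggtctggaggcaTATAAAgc

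Cbr2: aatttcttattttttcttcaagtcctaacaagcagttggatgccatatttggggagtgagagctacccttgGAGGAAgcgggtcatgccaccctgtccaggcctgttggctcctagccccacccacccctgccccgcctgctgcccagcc

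Dcxr: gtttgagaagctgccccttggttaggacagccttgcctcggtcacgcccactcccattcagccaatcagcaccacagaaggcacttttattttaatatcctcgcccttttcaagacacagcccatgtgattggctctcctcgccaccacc

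GAGGAA on either strand stood 35 to 30 bases before the start of Mrc1, 8 to 3 bases before that of Pf4 and 79 to 74 bases before that of Cbr2. The RefSeq start of Cbr2 lies inside the gene span given for it below, which ends at 120732114. Its match therefore falls within that span. Over all 32851 windows of this length in the RefSeq table, 14.5% held GAGGAA, and 5 of 9 windows of the border genes did, those of Cbr2, F13a1, Mrc1, Pf4 and Stab1. TATAAA was found in 7.57% of all windows and in none of the border genes' windows, while Ppbp had it on the printed strand at 30 to 25 and at 8 to 3 bases before its start. The letters AGATAA, bound by factors such as GATA1 of platelet precursors, were found in 5.65% of all windows and in none of theirs. Windows were given for 7 of the 9 genes, some with more than a single start. These matches are descriptions of letters and say nothing of binding.

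Levels between genes were compared per kilobase of merged exons. Averaged over all 7 libraries, Pf4 had the highest level at 541 CPM per kilobase, followed by Adgre1 at 354, Mrc1 at 78.8, Stab1 at 52.4, Cd163 at 12.2, Cbr2 at 6.92, F13a1 at 5.88, Folr2 at 1.93 and Lyve1 at 0.101. Among all genes of the table Pf4 ranked 65 and Adgre1 ranked 105 by this measure, while Folr2 ranked 13029 and Lyve1 24441. The markers of the same cell class therefore lay far apart in level in these rMG. Most neighbours in this order held their places in every library, including Mrc1 above Stab1 and Stab1 above Cd163 in 7 of 7. The order of Pf4 and Adgre1 differed between the groups. Pf4 was the higher in 3 of 3 unlasered libraries (737 ± 160 against 308 ± 41.6 CPM per kilobase, SD, n = 3) and in 1 of 4 lasered libraries (395 ± 73.0 against 389 ± 44.6 CPM per kilobase, SD, n = 4). Cbr2 and F13a1 did not keep an order, with Cbr2 the higher in 4 of 7 libraries.

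Between lasered and unlasered libraries 1 of the 8 border genes that could be tested fell and none rose, at an adjusted p under 0.05 (limma on log2(CPM + 1), Benjamini-Hochberg over 17496 genes). In the same fit 6.93% of all genes tested were called, 3.86% as higher and 3.07% as lower after laser injury. The share of 1 in 8 border genes rests on a single gene, Pf4, and is not read as a property of the group. At an unadjusted p under 0.05 in limma there were 4, Pf4 and Mrc1 lower and Cbr2 and Adgre1 higher, beside 3963 of all 17496. The log2 fold changes were positive for 5 and negative for 3 of them, with a median of 0.12 beside a median of -0.01 for all genes tested. The values of the groups did not overlap for 3 of the 8, Pf4, Mrc1 and Adgre1, beside 21.0% of all genes tested. In bulk samples fewer cells of a type and less RNA per cell cannot be told apart. The labels do not say how the pools relate to each other, so the p-values measure the spread between these libraries.

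**Figure D1:**
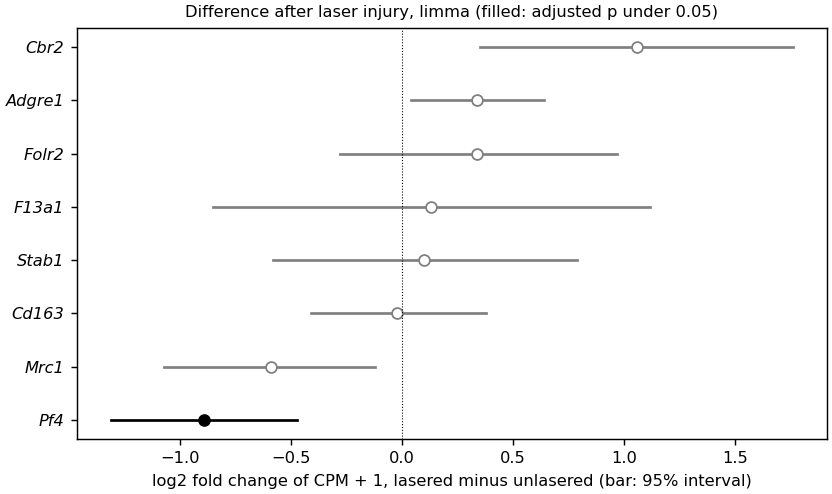
Difference between lasered and unlasered libraries for the 8 border macrophage genes that passed the filter, as log2 fold change of CPM + 1 (horizontal axis) with its 95% interval. The filled point is Pf4 at -0.89, the called gene, and the open points run from Mrc1 at -0.59 to Cbr2 at 1.06.

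Pf4 (ENSMUSG00000029373, chr5:90772435-90773383, plus strand, 3 merged exons of 721 bases) encodes platelet factor 4 (CXCL4), a chemokine stored in platelets that is also made by border macrophages. It was measured at 635.8, 550.0 and 407.2 CPM in unlasered libraries 1, 2 and 3 and at 257.8, 240.1, 281.8 and 359.5 CPM in lasered libraries 1 to 4. Every lasered library lay below every unlasered library. The mean fell from 531 ± 116 (SD, n = 3) to 285 ± 52.6 CPM (SD, n = 4). Its log2 fold change was -0.89 (SE 0.19, 95% interval -1.31 to -0.47, adjusted p = 0.0285 in limma), which is 1.85-fold on the log2(CPM + 1) scale. The change kept its direction without any single library, with log2 fold changes between -1.07 and -0.75. Its adjusted p in limma passed the threshold without unlasered library 3 (0.0193) or lasered library 4 (0.0259), and missed it without unlasered library 1 (0.0784) or 2 (0.0726), and without lasered library 1 (0.0767), 2 (0.0808) or 3 (0.0714). Relative to Csf1r, the receptor that macrophages and microglia need for survival, Pf4 stood at 0.086, 0.0777 and 0.039 in unlasered and at 0.0314, 0.0327, 0.0301 and 0.0359 in lasered libraries. Unlasered library 3 lay close to the lasered libraries in this ratio.

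Genes of platelets were at low levels in all libraries. The 12 platelet genes summed to between 31.4 and 51.5 CPM in unlasered and between 40.8 and 54.6 CPM in lasered libraries, and 7 of the 12 were under 1 CPM in every library. The largest member was Itgb3, an integrin chain that macrophages also make, with 18.6 to 38.4 CPM in unlasered and 31.0 to 46.5 CPM in lasered libraries. The other 11 platelet genes, Ppbp among them, summed to 23.2, 12.8 and 13.1 CPM in unlasered and to 8.09, 9.82, 8.91 and 12.3 CPM in lasered libraries. Without Itgb3 every lasered library thus lay below every unlasered library, as it did for Pf4, and the part of platelet RNA in the Pf4 values was not tested. The sort for CD45low CD11b+ GFP+ cells selects neither platelets nor rods. Rod genes still summed to between 2183 and 19690 CPM in unlasered and between 317.9 and 1014 CPM in lasered libraries. The sort therefore does not show that RNA of other cells was absent. Itga2b, the platelet integrin chain that defines the lineage, was at most 0.20 CPM, and Gp1bb and Gp5, parts of the platelet receptor for von Willebrand factor, were at most 0.0292 and 0.0445 CPM.

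Ppbp (ENSMUSG00000029372, chr5:90768518-90770063, plus strand), another platelet chemokine of the CXC family, ends 2.37 kb before the start of Pf4. Its levels were 7.98, 6.07 and 6.58 CPM in unlasered and 2.54, 3.41, 4.70 and 2.80 CPM in lasered libraries. The groups did not overlap, and Ppbp fell with a log2 fold change of -0.87 (SE 0.22, adjusted p = 0.0485 in limma). That call lay close to the threshold and was lost without each of the 7 libraries in turn. The ratio of Pf4 to Ppbp was 77.4 ± 14.5 (SD, n = 3) in unlasered and 90.1 ± 31.1 (SD, n = 4) in lasered libraries, a difference within the spread. Cxcl2, on the other side of Pf4, had a log2 fold change of -0.31 (adjusted p = 0.624 in limma).

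Mrc1 was measured at 519.8, 562.4 and 779.4 CPM in unlasered and at 386.0, 295.0, 453.1 and 519.2 CPM in lasered libraries. The groups touched without overlapping, since lasered library 4 lay just below unlasered library 1. The log2 fold change was -0.59 (SE 0.21, 95% interval -1.07 to -0.12) and did not pass the test after adjustment (limma, adjusted p = 0.131), nor under any of 17 alternatives that gave a value, with log2 fold changes from -0.71 to -0.42. Unlasered library 3 and lasered library 2 set the size of this difference: without the former it was -0.42 and without the latter -0.44. The ratio of Mrc1 to Cd163 was 8.19, 9.46 and 10.2 in unlasered and 4.66, 5.49, 7.58 and 7.58 in lasered libraries, again without overlap.

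The genes whose profile over the 7 libraries came nearest to that of Mrc1, by the root mean square difference of centred log2(CPM + 1) among 10287 genes with a mean of at least 10 CPM, were D3Ertd254e (0.140), Rrn3 (0.141), Appl2 (0.146), Tmem64 (0.146) and Zbtb38 (0.152). The smaller this difference, the more alike the profiles. None of them is on a list of border macrophage genes used here. Of the border genes, Cd163 came nearest with a difference of 0.375 and rank 2004, followed by Pf4 (0.385, rank 2258), Stab1 (0.462, rank 4699), Adgre1 (0.523, rank 6553) and F13a1 (0.898, rank 9862). The points of this measure share libraries and depth, and it carries no test.

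Cd163 (ENSMUSG00000008845, chr6:124304656-124330527, plus strand), the scavenger receptor for haemoglobin complexes, was measured at 63.5, 59.5 and 76.5 CPM in unlasered and at 82.8, 53.7, 59.8 and 68.5 CPM in lasered libraries. The groups overlapped almost fully. Its log2 fold change was -0.02 (SE 0.17, 95% interval -0.41 to 0.38, adjusted p = 0.969 in limma), and its sign turned under several alternatives. Genes that act on the haem taken up through CD163 were not called either. Hmox1, which opens the haem ring, had a log2 fold change of 0.45 (adjusted p = 0.243 in limma), Slc48a1, a haem transporter, 0.40 (adjusted p = 0.13) and Blvrb, a biliverdin reductase, 0.03 (adjusted p = 0.927). Slc48a1 did not overlap between the groups, with 63.2, 63.1 and 52.6 CPM in unlasered and 89.2, 84.8, 74.9 and 68.4 CPM in lasered libraries.

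Stab1 (ENSMUSG00000042286, chr14:31139013-31168641, minus strand, 58 merged exons of 10288 bases) encodes stabilin-1, a large scavenger receptor of macrophages and some endothelia. It was measured at 358.8, 375.0 and 890.7 CPM in unlasered and at 592.1, 459.3, 444.4 and 649.5 CPM in lasered libraries. Unlasered library 3 was more than the other unlasered libraries together, and all lasered libraries lay between them. The log2 fold change was 0.10 (SE 0.30, 95% interval -0.58 to 0.79, adjusted p = 0.879 in limma). Without unlasered library 3 it was 0.53 (adjusted p = 0.0944), and without unlasered library 1 or 2 it was -0.13 or -0.10. Exons of Stab1 overlap those of Nt5dc2 on the other strand. The table lists no reads of Stab1 jointly with another gene, but the SMARTer Ultra Low Input cDNA kit named in the methods does not mark strand, so reads within such overlaps cannot be assigned to a gene with certainty.

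Unlasered library 3 differed from the others by gene length. When genes were sorted into 10 groups by exonic length, its median difference from the mean of the 7 libraries, in log2(CPM + 1), ran from -0.251 for the shortest genes (median 410 bases) to 0.307 for the longest (median 11720 bases), against a range of -0.147 to 0.159 in the other 6 libraries. In its group this library was the highest for 4 of the 8 tested border genes, Stab1 (10288 bases of exons), Mrc1 (6371), Cd163 (5461) and Adgre1 (3238), and the lowest for Pf4 (721) and Cbr2 (1327). F13a1, with 6739 bases, was highest in unlasered library 1 and not in library 3. With each library centred within length groups, which was tried once the values were known, Pf4 had a log2 fold change of -0.97 (adjusted p = 0.018 in limma), Cbr2 of 1.08 (adjusted p = 0.0656), Mrc1 of -0.55 (adjusted p = 0.121) and Stab1 of 0.14 (adjusted p = 0.764). The calls of these genes thus did not move.

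**Figure D2:**
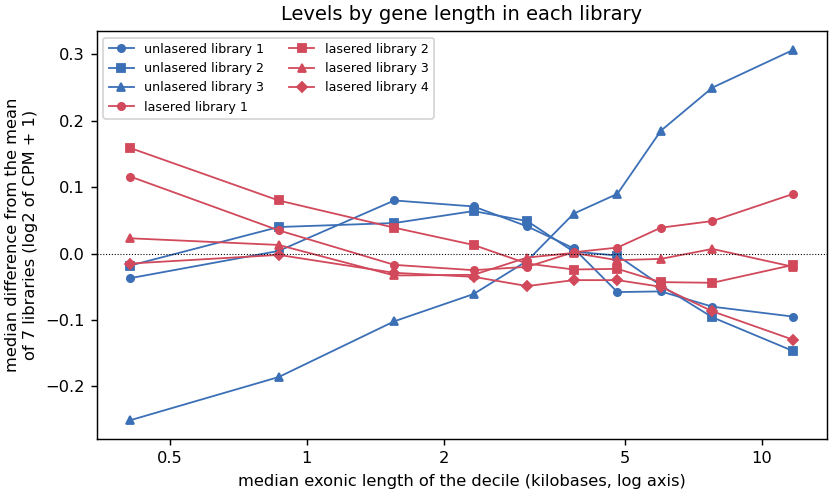
Median difference of a library from the mean of the 7 libraries (vertical axis, log2 of CPM + 1) in 10 groups of genes sorted by exonic length (horizontal axis, median length of the group in kilobases, logarithmic), with a line for each library. The line of unlasered library 3 rises from -0.251 to 0.307, and the other 6 lines stay between -0.147 and 0.159.

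Cbr2 (ENSMUSG00000025150, chr11:120729489-120732114, minus strand), a carbonyl reductase that marks border and other tissue macrophages, was low in all libraries, with 8.67, 5.14 and 2.83 CPM in unlasered and 14.2, 8.40, 12.6 and 12.4 CPM in lasered libraries. The groups overlapped only through unlasered library 1, which lay above lasered library 2. The means were 5.55 ± 2.94 (SD, n = 3) and 11.9 ± 2.47 CPM (SD, n = 4), and the log2 fold change of 1.06 (SE 0.31, 95% interval 0.35 to 1.76) did not pass the test after adjustment (limma, adjusted p = 0.0799). It passed without unlasered library 1 (log2 fold change 1.39, adjusted p = 0.0331 in limma) and in DESeq2 on the recovered reads (1.11, adjusted p = 0.0308), and not in edgeR (1.11, adjusted p = 0.115).

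Dcxr (ENSMUSG00000039450, chr11:120725399-120727281, minus strand), which encodes dicarbonyl and L-xylulose reductase, is a relative of Cbr2 and starts 2.21 kb past its end. Its levels were 39.1, 32.9 and 29.7 CPM in unlasered and 66.0, 66.2, 63.8 and 66.5 CPM in lasered libraries. The lasered libraries agreed to within a few CPM and all lay above the unlasered ones. Dcxr rose with a log2 fold change of 0.94 (SE 0.14, 95% interval 0.64 to 1.25, adjusted p = 0.00888 in limma), and this call was kept without each library in turn. The ratio of Cbr2 to Dcxr was 0.158 ± 0.0631 (SD, n = 3) in unlasered and 0.181 ± 0.0383 (SD, n = 4) in lasered libraries, within the spread. The other carbonyl reductase genes Cbr1, Cbr3 and Cbr4 were measured at log2 fold changes of -0.20, -0.27 and -0.17, with adjusted p of 0.507, 0.428 and 0.545 in limma.

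The nearest tested gene on each side of every border gene was looked up after the values of these pairs had been seen. Of the 18 neighbours, 2 were called, Ppbp and Dcxr, beside 6.93% of all genes tested, a share from which nothing is read at this number. Ppbp had the sign of Pf4 and Dcxr that of Cbr2. They lie at 2.37 and 2.21 kb on the same strand. The neighbours Inppl1 of Folr2 (1.76 kb) and Nisch of Stab1 (2.29 kb), also on the same strand, had log2 fold changes of -0.00 and -0.05. Whether transcripts run from a gene into its neighbour was not tested.

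**Figure D3:**
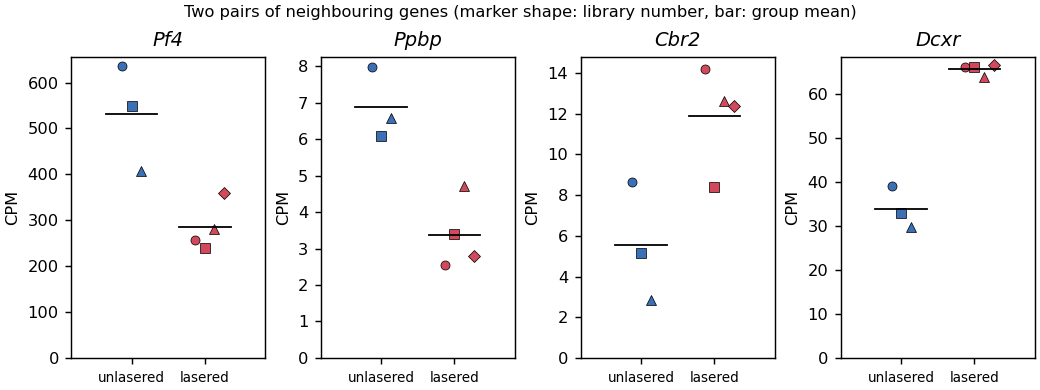
Levels of Pf4 and its neighbour Ppbp, and of Cbr2 and its neighbour Dcxr, in CPM (vertical axes, linear from 0, a scale for each gene) in the 3 unlasered and 4 lasered libraries, with marker shape for the library number and a bar for the group mean. Lasered points lie below all unlasered points for Pf4 and Ppbp and above them for Dcxr, and for Cbr2 the groups overlap through the unlasered point at 8.67 CPM.

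Adgre1 (ENSMUSG00000004730, chr17:57358691-57483527, plus strand), which encodes the adhesion receptor F4/80 found on most mouse macrophages and on microglia, was measured at 1007, 856 and 1124 CPM in unlasered and at 1181, 1180, 1475 and 1197 CPM in lasered libraries. All lasered libraries lay above the unlasered ones, and lasered library 3 stood apart from the other lasered libraries. The log2 fold change was 0.34 (SE 0.13, 95% interval 0.04 to 0.64) and did not pass the test (limma, adjusted p = 0.169). Its relatives Adgre4 and Adgre5 had log2 fold changes of the other sign, -1.63 (adjusted p = 0.169 in limma) and -0.60 (adjusted p = 0.0523). Adgre5 (CD97) did not overlap between the groups, with 213.2, 215.2 and 300.3 CPM in unlasered and 178.8, 166.0, 143.6 and 145.7 CPM in lasered libraries.

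F13a1 (ENSMUSG00000039109, chr13:36867178-37050244, minus strand), the A chain of the clotting factor that links fibrin, was measured at 44.6, 24.1 and 37.3 CPM in unlasered and at 68.7, 52.6, 34.3 and 15.9 CPM in lasered libraries. The highest and the lowest value were both in the lasered group. Its log2 fold change was 0.13 (SE 0.44, 95% interval -0.85 to 1.12, adjusted p = 0.893 in limma), and it was -0.15 without lasered library 1, -0.02 without lasered library 2 and -0.11 without unlasered library 2. The 10 monocyte genes summed to 243.1, 159.2 and 617.4 CPM in unlasered and to 1055, 850.7, 732.3 and 353.3 CPM in lasered libraries. Most of the lasered sums came from Fn1, fibronectin, with 776.0, 525.3, 593.0 and 247.5 CPM. In unlasered libraries Fn1 was at 41.1, 65.6 and 287.8 CPM, so its groups overlapped. Fn1 was the called gene of that list (log2 fold change 2.41, adjusted p = 0.0485 in limma). Without Fn1 the monocyte genes summed to 202.0, 93.7 and 329.6 CPM in unlasered and to 278.7, 325.3, 139.3 and 105.8 CPM in lasered libraries. F13a1 and both sums were lowest in unlasered library 2 and in lasered library 4, and higher in lasered libraries 1 and 2 than in 3 and 4. The highest unlasered library was 1 for F13a1 and 3 for both sums, and the highest lasered library was 1 for F13a1 and the sum with Fn1 and 2 for the sum without it. Ly6c2 was at most 0.891 CPM in any library, where the sort for Ly6C- cells would itself keep it low, and Ccr2 was at 81.5, 127.7, 19.7 and 7.57 CPM in lasered and between 5.63 and 14.2 CPM in unlasered libraries. The part of monocyte-derived cells in the F13a1 values was not tested. Exons of F13a1 overlap those of Gm30489 on the other strand.

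Folr2 (ENSMUSG00000032725, chr7:101839988-101857194, minus strand), the folate receptor of macrophages, was near the lower end of what was measured, with 1.96, 2.83 and 2.33 CPM in unlasered and 5.85, 3.16, 2.35 and 2.45 CPM in lasered libraries. Lasered library 1 held the highest value and the groups overlapped. Its log2 fold change was 0.34 (SE 0.28, 95% interval -0.28 to 0.97, adjusted p = 0.512 in limma). Slc46a1, the proton-coupled folate transporter, and Slc19a1, the reduced folate carrier, had log2 fold changes of 0.13 (adjusted p = 0.665) and -0.15 (adjusted p = 0.692). Exons of Folr2 overlap those of Gm10602 on the other strand.

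Lyve1 (ENSMUSG00000030787, chr7:110850607-110863239, minus strand), the hyaluronan receptor that marks a subset of border macrophages and lymphatic endothelium, was listed with 19, 0 and 40 reads in unlasered libraries 1, 2 and 3 and with 1, 0, 0 and 0 reads in lasered libraries 1 to 4. It did not pass the filter of at least 1 CPM in at least 3 libraries and was not tested with the other genes. Its levels were 0.930 CPM in unlasered library 1 and 1.11 CPM in unlasered library 3, so 2 libraries carried all but 1 of the reads. Pooled over libraries, 59 of 90693474 reads stood against 1 of 172087881 reads, a ratio of 112 (exact 95% interval 19.3 to 4500), which compares reads and covers counting error only. Unlasered library 2, with 0 reads, differed from the other unlasered libraries by as much as the lasered ones did. In a fit with no filter on low values Lyve1 had a log2 fold change of -0.67 (adjusted p = 0.209 in limma), on a scale that understates changes of such low genes. Genes of endothelium summed to 41.8, 26.0 and 76.8 CPM in unlasered and to between 25.7 and 39.5 CPM in lasered libraries. Within the unlasered group, 6 of the 12 endothelial genes were lowest in library 2, among them Pecam1 (12.6, 8.62 and 36.8 CPM), Emcn (3.04, 0.0876 and 0.555 CPM) and Vwf (10.6, 1.14 and 4.44 CPM). In the same library 2 were highest, Cdh5 (0.294, 0.730 and 0.389 CPM) and Flt4 (0.196, 1.26 and 0.999 CPM). The share of all genes lowest in library 2 was not taken, and several of these genes were near or under 1 CPM. No link to Lyve1 is read from the count. Cldn5, which defines vessel endothelium of the retina, was at most 0.0278 CPM in any library. The sort for CD45low CD11b+ GFP+ cells does not select endothelial cells, but rod RNA was present after the same sort. The part of endothelial RNA in the Lyve1 reads was not tested.

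A further 25 genes known from border macrophages were read from the same fit, and 21 of them could be tested. Of these, 2 rose and 3 fell, 23.8% of the genes tested beside 6.93% of all genes, with a median log2 fold change of 0.30. The list thus held calls in both directions. At an unadjusted p under 0.05 in limma there were 13 of the 21, beside 3963 of all 17496. Siglec1 (CD169), a lectin of border and lymphoid macrophages, rose from 51.1, 83.7 and 138.4 CPM to 474.9, 337.6, 283.8 and 207.4 CPM, with a log2 fold change of 1.88 (SE 0.35, adjusted p = 0.0187 in limma). Colec12, a scavenger receptor with a collagen stalk, rose from 39.4, 42.7 and 51.4 CPM to 91.6, 70.7, 109.7 and 73.1 CPM, with a log2 fold change of 0.93 (SE 0.18, adjusted p = 0.0234 in limma), and part of its reads were shared with an overlapping gene. Siglec1 and Colec12 did not overlap between the groups.

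The genes of that list that fell encode an attractant for eosinophils and myeloid membrane proteins. Ccl24 fell from 67.8, 65.0 and 44.0 CPM to 18.0, 26.5, 25.9 and 29.4 CPM, with a log2 fold change of -1.20 (SE 0.21, adjusted p = 0.0164 in limma). For Clec12a, an inhibitory lectin, 533.8, 340.5 and 284.1 CPM in unlasered stood against 154.0, 196.0, 154.9 and 229.1 CPM in lasered libraries, with a log2 fold change of -1.04 (SE 0.23, adjusted p = 0.0321). For Ms4a7, a tetraspan protein of macrophages, 1484, 1247 and 906 CPM stood against 561.5, 902.4, 664.9 and 615.7 CPM, with a log2 fold change of -0.81 (SE 0.20, adjusted p = 0.047). Clec12a and Ms4a7 did not overlap between the groups either, although unlasered library 3 and lasered library 2 nearly met in Ms4a7. Without single libraries the count of 5 ranged from 1 to 6: it was 4 without unlasered library 1, 2 without unlasered library 2 or lasered library 1, 1 without lasered library 2 or 3, 5 without lasered library 4 and 6 without unlasered library 3. Of the 7 fits that each left out a library, Ccl24 was called in 6, Siglec1 in 5, Colec12 in 3, Clec12a in 2 (without unlasered library 3 or lasered library 4) and Ms4a7 in 1 (without unlasered library 3). Centring within length groups lost Clec12a and Ms4a7, and Ms4a7 was also lost with median-of-ratios scaling and with a filter on a mean of at least 10 reads.

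The other abundant genes of that list did not pass the test in the main limma fit. Dab2, an endocytic adaptor, had a log2 fold change of -0.31 (adjusted p = 0.305 in limma), and Lyz2, lysozyme, one of 0.30 (adjusted p = 0.791) with lasered values spread from 547.1 to 3091 CPM. Ms4a4a was higher in all lasered than in all unlasered libraries, with 113.0, 113.4, 54.5 and 20.4 CPM against 19.5, 11.9 and 18.8 CPM (log2 fold change 1.85, adjusted p = 0.0731 in limma). It was called in edgeR and DESeq2, with median-of-ratios scaling and without lasered library 4. Mgl2 was called in DESeq2, and further genes of the list were called only without unlasered library 1 or 3. The lectins Mgl2 and Clec10a, shared with dendritic cells, were highest in lasered libraries 1 and 2, with 24.1 and 54.3 CPM for Mgl2 against at most 3.48 CPM in the other 5 libraries. The 10 dendritic cell genes summed to 2018 and 3237 CPM in these 2 libraries and to between 68.1 and 319.6 CPM in the other 5. Most of this came from Cd74, a chain of antigen presentation that activated microglia also make, with 1808 and 2989 CPM in lasered libraries 1 and 2. The other 9 genes summed to 209.8 and 248.7 CPM in these libraries and to at most 70.7 CPM in the other 5. Ccl22, a chemokine of dendritic cells and the called gene of that list, was higher in all 4 lasered libraries, with 18.2, 36.4, 8.89 and 3.53 CPM against at most 0.196 CPM in unlasered libraries (log2 fold change 3.62, adjusted p = 0.0132 in limma). The part of dendritic cells in the lectin values was not tested, and the sort for CD45low cells does not settle it. Cd209f, Cd209g and Ccl8, which mark border macrophages of the brain and skin, were listed at 0 reads in all 7 libraries, and Cd209b was at most 1.57 CPM.

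**Figure D4:**
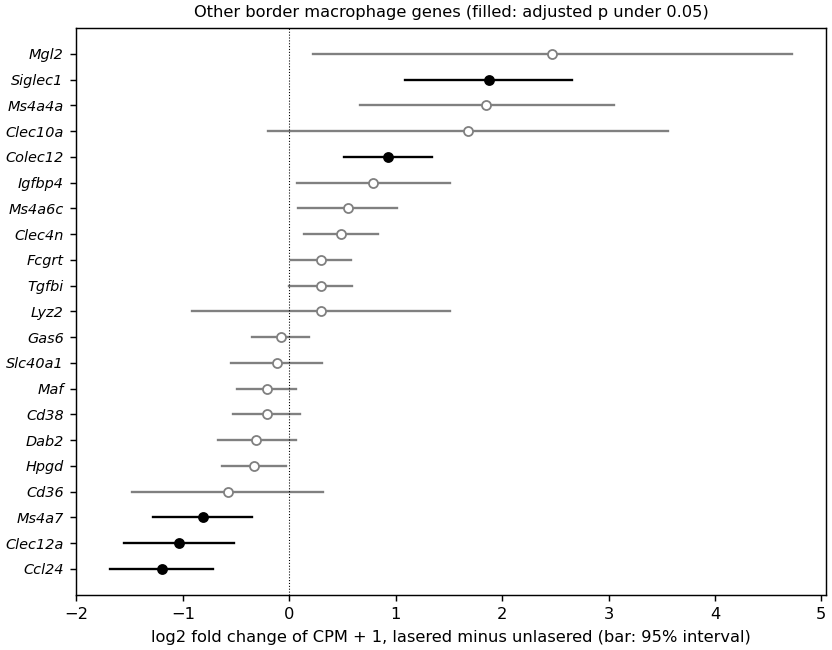
Difference between lasered and unlasered libraries for 21 further genes known from border macrophages, as log2 fold change of CPM + 1 (horizontal axis) with its 95% interval. Filled points mark the 5 called genes, Siglec1 (1.88) and Colec12 (0.93) on the right and Ms4a7 (-0.81), Clec12a (-1.04) and Ccl24 (-1.20) on the left.

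Of 18 genes related by sequence or task to the border genes, 13 could be tested, and 1 rose (Dcxr) and 2 fell (Ppbp and Pla2r1), beside 3.86% higher and 3.07% lower among all genes tested. Pla2r1, a phospholipase A2 receptor from the family of Mrc1, was measured at 3.18, 29.9 and 11.9 CPM in unlasered and at 0.952, 1.23, 0.261 and 0.512 CPM in lasered libraries, with a log2 fold change of -2.81 (SE 0.57, adjusted p = 0.0249 in limma). Its unlasered libraries stood in the same order as the summed rod genes, highest in library 2 and lowest in library 1, and the part of rod RNA in Pla2r1 was not tested. The call was lost without unlasered library 3 and without each of the 4 lasered libraries. Mrc2, a collagen-binding receptor of this family, was at most 1.75 CPM in any library. Cd44, the hyaluronan receptor related to LYVE1, was at 136.4, 107.6 and 145.2 CPM in unlasered and at 385.1, 365.0, 162.9 and 130.6 CPM in lasered libraries (log2 fold change 0.86, adjusted p = 0.209).

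Ligands, receptors and transcription factors tied to these genes were called in none of 16 tested cases in limma, a number too small to be set apart from the 6.93% of all genes. At an unadjusted p under 0.05 there were 3, with 4 calls for the related and partner genes together in edgeR and 7 in DESeq2, against 3 in limma. Csf1r was at 8301 ± 1854 (SD, n = 3) and 8737 ± 1193 CPM (SD, n = 4). Il4ra, a receptor chain for interleukins that raise Mrc1 in macrophages, had a log2 fold change of 0.42 (adjusted p = 0.139 in limma).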

How the data were processed

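The table analysed holds RNA-seq values of rMG from 7 Irf8 KO libraries. The authors removed adapters with cutadapt, aligned with Bowtie2 and ran HTSeq with annotation version 90 for read counts by gene (GRCm38, per the submitters' processing notes). The deposited values are headed TPM but are CPM: each is a whole multiple of the value of 1 read in its library, for 100% of values within 0.0001 CPM. The authors listed some reads under several overlapping genes, and 4492 of 40743 genes include such joint reads. Reads are not independent molecules, so intervals and floors cover counting error only.

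Groups follow the sample titles. The groups were compared by limma 3.58.1 (R 4.3.3, statmod 1.5.0) on log2(CPM + 1), with trend and robust empirical Bayes, two-sided, for the 17496 genes that reached 1 CPM in 3 or more libraries, with Benjamini-Hochberg adjustment and a threshold of 0.05. The fit was tested on simulated data. Gene models of GENCODE vM21 (GRCm38, merged exons), not the annotation version used by the authors, gave exonic lengths for 99.2% of genes. They also gave the positions of the named genes. Other steps used Python 3.11.15 (matplotlib 3.10.9, scipy 1.17.1, numpy 2.4.6, pandas 2.3.3).

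The border genes and all lists were chosen with earlier results of these data known. Named are all 9 border genes, Irf8, genes that share reads with a border gene and the 5 genes nearest to Mrc1. Of each other list except that of rod genes, called genes (at most 8) and up to 4 abundant ones are named. Rod genes are given by their sum and count alone. Further genes were named after their values were seen: neighbours of the border genes, and list genes used to describe a border gene's family, task or cell type. Alternatives were a pseudocount of 0.1, no filter, a mean of at least 10 reads, a replicate block, each library left out, median-of-ratios scaling, totals without rod genes, edgeR 4.0.16 and DESeq2 1.42.0 on recovered reads, and leaving out genes with joint reads, in place of using only reads of the gene itself, which the table does not separate. Thinning to 20427558 reads and centring within length groups were chosen after seeing the data, as were all alternatives for the related genes.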

Additional observations from a re-analysis of the deposited data

Results flagged for a closer look

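Of 17 levels of lasered libraries tested for a single library far from the rest, 3 stood out, where chance marks about 1 in 20. For Adgre1, lasered library 3 at 1475 CPM was far above the other lasered libraries, which lay between 1180 and 1197 CPM. For Dcxr, lasered library 3 at 63.8 CPM was below the others, which lay between 66.0 and 66.5 CPM, a small gap within a very narrow group. For Lyve1, lasered library 1 at 0.0227 CPM, a single read and under the floor of 3 reads, was the only lasered library above 0.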

How the results depend on the processing

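Of the 8 tested border genes, Mrc1, Folr2 and Adgre1 kept their direction and stayed short of the threshold under every alternative run. The count of called border genes was 0 with no filter on low values (Pf4 adjusted p = 0.0703 in limma), 2 in DESeq2 (Cbr2 and Pf4) and between 0 and 1 without single libraries, and it was 1 under the other settings without a block. Over 18 alternatives the log2 fold change of Pf4 ranged from -1.07 to -0.75, its adjusted p ranged from 0.00118 (DESeq2) to 0.1, and it was called in 11. All genes called numbered 1213 and became 385 with no filter, 2318 in DESeq2 and between 264 and 1248 without single libraries. The 5 further border genes became 1 with no filter, 3 with centring within length groups and between 1 and 6 without single libraries. The 3 related and partner genes became 1 with no filter, 7 in DESeq2 and between 1 and 3 without single libraries. The causes were not tested.

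The sign of Cd163 turned with median-of-ratios scaling (0.07, where the median of all genes was 0.06), with centring within length groups (0.03), in edgeR (0.00) and DESeq2 (0.00), and without single libraries, between -0.13 and 0.09. That of F13a1 ranged from -0.15 to 0.53 and that of Stab1 from -0.13 to 0.53 without single libraries. Whether library numbers shared by the groups pair the samples is not given in the labels. Deviations from the group means correlated at -0.183, -0.126 and -0.023 for equal numbers and between -0.109 and 0.205 for unequal ones. With so few libraries these correlations cannot decide whether the samples are paired. With the replicate block, 3 of all genes, 0 border genes (Pf4 adjusted p = 0.1), 0 further border genes and 0 related genes were called. Low reads limit Lyve1 and Folr2, whose libraries held 0 to 40 and 40 to 258 reads.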
